A study of Mus musculus with 6 samples.

Results

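The serotonin receptor genes described here are Htr1a, Htr1b, Htr1d, Htr1f, Htr2a, Htr2c, Htr3a, Htr4, Htr5a and Htr7, 10 of the 32285 genes in the deposited count tables. They were chosen as a listed set of receptor genes, matched by gene symbol, and all 10 were found in the tables of all 6 libraries. The other 4 receptor genes of the family (Htr2b, Htr3b, Htr5b and Htr6) were measured too and are given with the rest of the pathway. Nuclei were kept when at least 500 genes were detected and at most 5% of their unique molecular identifiers (UMIs, each standing for 1 captured RNA molecule) were mitochondrial.

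The nuclei came from the pons and medulla, the brainstem regions that hold the breathing and autonomic circuits, of wild-type (WT) C57BL6/J male mice. The mice were weaned at postnatal day 21 and group housed with littermates. The chronic intermittent hypoxia (CIH) group was exposed from postnatal day 22 to 43, with 80 cycles given in 8 hours on each of 21 days. In each cycle nitrogen lowered the chamber to between 4.5 and 5% oxygen over 60 seconds, and air given for up to 5 minutes returned it to 21%. The normoxia group stayed in room air over the same days. Each group had 3 libraries of nuclei sorted by fluorescence, and the number of mice behind a library is not given in the sources used here, so p-values measure the spread between libraries. The comparisons ask in which cell types each receptor gene was transcribed and whether CIH changed its level there.

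Serotonin is made in the brainstem by raphe neurons, whose fibres reach the respiratory and autonomic nuclei. Its receptors fall into groups by what they do inside the cell. The HTR1 and HTR5 receptors couple to inhibitory G proteins, and HTR1A, HTR1B and HTR1D also sit on serotonin neurons themselves as autoreceptors that hold back firing or release. The HTR2 receptors act through Gq and phospholipase C, HTR4 and HTR7 raise cyclic AMP through Gs, and HTR3A is a subunit of a cation channel opened by serotonin.

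The genes differ in structure in ways that bear on counts from nuclei, which hold much unspliced RNA. In GENCODE M21 on mm10, Htr1a (chr13:105443639-105448122, plus strand) has a single exon. Htr2c (chrX:146962513-147197277, plus strand) spans 234.8 kb and has up to 7 exons in a transcript. Between these in length lie Htr1b (chr9:81628291-81633828, minus strand), Htr1d (chr4:136423524-136444398, plus strand), Htr1f (chr16:64924729-65105854, minus strand), Htr2a (chr14:74640840-74709494, plus strand) and Htr3a (chr9:48899213-48911099, minus strand). The other two placed here are Htr5a (chr5:27842149-27855088, plus strand) and Htr7 (chr19:35958734-36057507, minus strand). Htr1b overlaps the antisense gene D430036J16Rik and Htr3a the antisense gene Gm32335, and Htr2c holds small RNA genes on its own strand, among them Snora35 and Mir764. Reads of such neighbours could have been counted with these members, since the sources used here do not state how strand and overlap were handled.

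Start regions from 250 bases before to 50 bases after the annotated start (RefSeq, GRCm38.p6) were matched for 8 of the 10 genes, 9 windows in all because Htr1d has a pair of starts. The 3 windows below are shown because their genes were called higher in serotonergic neurons (Htr1b and Htr1d) or had the highest level in neurons overall (Htr2c). They are those of Htr1b (chr9:81633783-81634082, minus strand), Htr1d at its first start (chr4:136423274-136423573, plus strand) and Htr2c (chrX:146962263-146962562, plus strand). Capitals mark the letters CCAAT or, on the opposite strand, ATTGG.
Htr1b: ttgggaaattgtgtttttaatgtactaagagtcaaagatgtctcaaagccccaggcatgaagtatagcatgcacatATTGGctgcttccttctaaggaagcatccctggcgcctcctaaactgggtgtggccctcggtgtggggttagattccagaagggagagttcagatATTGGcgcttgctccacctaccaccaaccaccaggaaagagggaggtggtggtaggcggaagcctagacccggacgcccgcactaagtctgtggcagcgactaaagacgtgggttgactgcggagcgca
Htr1d: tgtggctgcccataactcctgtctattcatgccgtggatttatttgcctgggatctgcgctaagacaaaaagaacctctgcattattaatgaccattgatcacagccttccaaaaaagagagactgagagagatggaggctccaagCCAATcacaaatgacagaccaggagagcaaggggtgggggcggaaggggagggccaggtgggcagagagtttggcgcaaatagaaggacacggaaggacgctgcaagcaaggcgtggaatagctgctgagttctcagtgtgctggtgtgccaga
Htr2c: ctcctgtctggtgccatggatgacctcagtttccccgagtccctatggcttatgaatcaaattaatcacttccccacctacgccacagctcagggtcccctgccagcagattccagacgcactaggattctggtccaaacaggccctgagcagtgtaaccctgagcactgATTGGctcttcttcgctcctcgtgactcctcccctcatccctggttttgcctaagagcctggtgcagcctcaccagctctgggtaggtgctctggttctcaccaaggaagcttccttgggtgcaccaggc
These were the 3 of the 9 windows with the motif, which was found on either strand in 37.4% of 32851 mouse promoter windows of the same length. The Htr1b window holds 2 matches and the other windows shown hold 1 each. The second Htr1d window (chr4:136424362-136424661) holds 0. The letters GGAAGT or ACTTCC occur in 23.8% of the mouse windows and in those of Htr1a and Htr2c. A match is a run of letters and says nothing here of a factor bound to it.

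The libraries held 26733243 to 46754345 UMIs. CIH replicate 1 and Normoxia replicate 2 shared 1563 cell barcodes, 33.9% of those of CIH replicate 1 and 21.1% of those of Normoxia replicate 2, while the other 14 pairs of libraries shared 3 to 38. A shared barcode had a median of 7872 UMIs in CIH replicate 1 and 984 in Normoxia replicate 2, with profiles that correlated more (median r = 0.548) than those of mismatched barcodes (0.313). The 1163 of them that passed the filter in Normoxia replicate 2 were left out of that library, and keeping them changed no call on the 10 genes. After removal of high doublet scores, 36360 nuclei were kept, 13606 of them neurons other than granule and cerebellar-marker neurons. Neurons made up 30.4, 27.9 and 31.0% of nuclei in CIH replicates 1, 2 and 3, against 41.9, 42.6 and 47.3% in normoxia. Of the 13606 neurons, 3731 lay in doubtful clusters, those led by mitochondrial, oligodendrocyte or granule neuron transcripts. These were 374, 313 and 1524 nuclei in CIH replicates 1, 2 and 3, against 408, 491 and 621 in normoxia. They are counted as neurons unless stated. Granule neurons, a cerebellar type in tissue labelled pons-medulla, made up 24.8, 27.5 and 6.68% in CIH against 8.63, 9.01 and 5.95% in normoxia. CIH replicate 3 had the highest median mitochondrial share (0.3685%, against 0.0741 to 0.0974% in the other 5). Within each group, replicates 1 and 2 differed little (chi-square of 1.99 per gene for the CIH pair, and 2.40 for the normoxia pair) and replicate 3 stood apart from both (15.7 to 20.0).

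Neurons were sorted into types by their own UMIs of transmitter marker genes, none of them a receptor gene, and clusters were built without any Htr gene. A serotonergic nucleus had at least 2 of Tph2, Slc6a4 and Fev detected. The types were 108 serotonergic, 2159 excitatory, 2516 glycinergic and 1855 GABA neurons without Slc6a5, while 6823 nuclei (50.1%) stayed untyped. Of the untyped, 3574 had 0 transmitter UMIs and 3192 had 1. Levels are given in CPM, the UMIs of a gene per 1000000 UMIs of that class in a library, with mean ± SD over the 6 libraries unless stated.

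Across all neurons, the order of the 10 genes depended on how length was taken into account. Per kb of exon the neuronal level was 60.5 CPM for Htr2c, 35.0 for Htr1f, 18.05 for Htr7, 14.2 for Htr4, 2.62 for Htr2a, 1.59 for Htr1b and 1.11 for Htr1d. It was 0.447 for Htr5a, 0.266 for Htr1a and 0.193 for Htr3a. Per kb of the whole gene, introns included, Htr2c stayed highest at 2.41 CPM, Htr1b came next at 1.35 and Htr3a stayed lowest at 0.034. Htr2c was the highest and Htr3a the lowest on both scales, whereas the place of Htr1b, a short gene, moved from the sixth to the second.

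**Figure D1:**
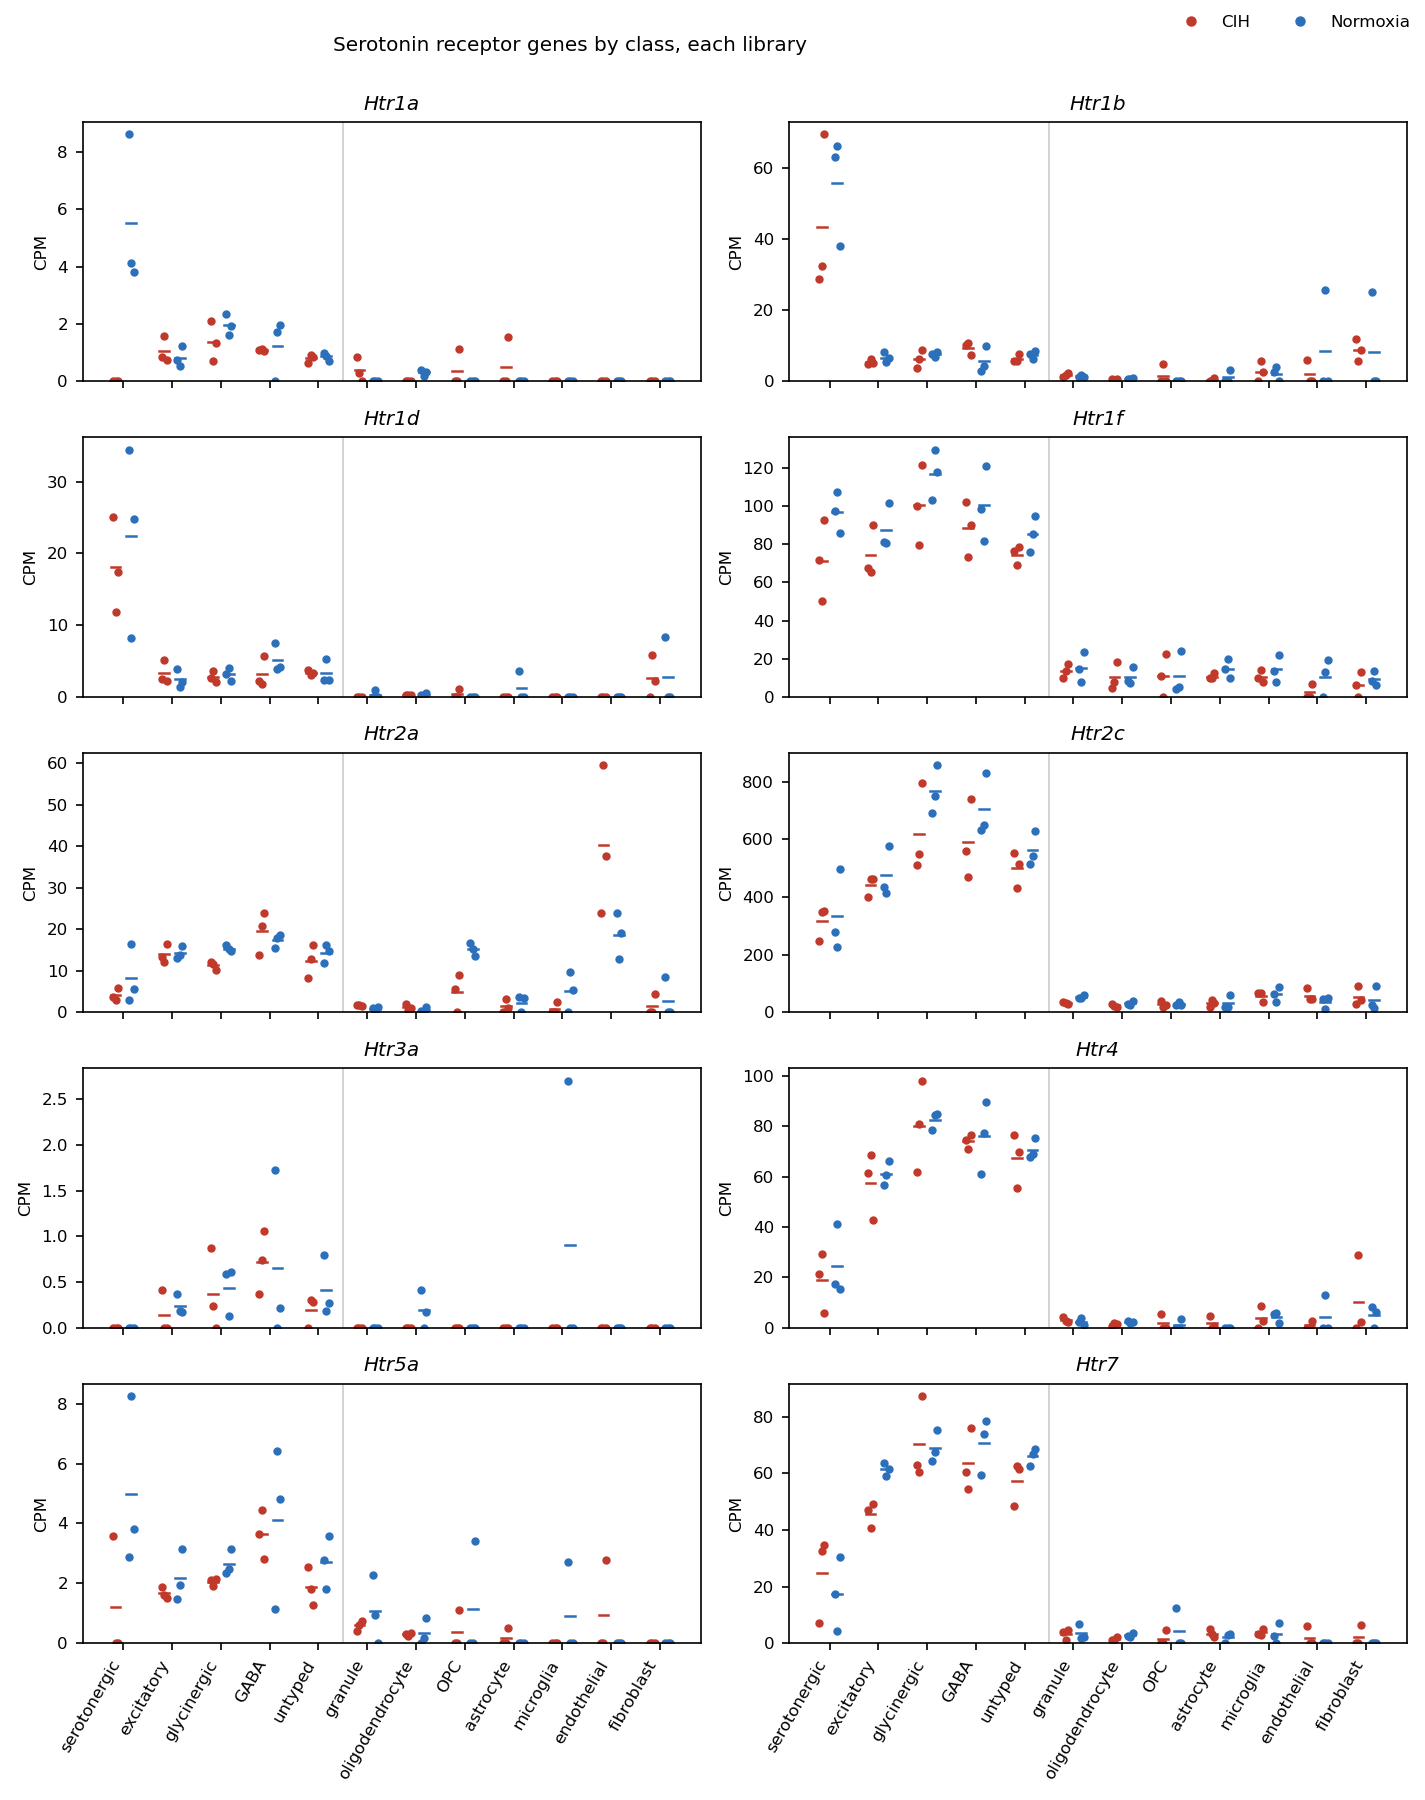
Level of each receptor gene (vertical axis, CPM, one scale per gene) by class in each library, with CIH in red left of normoxia in blue and a short line at each group's mean. Htr1b and Htr1d stand out in serotonergic neurons, where all 6 libraries exceed the mean of every other class drawn, whereas Htr2c, Htr1f, Htr4 and Htr7 lie higher in the other neuron types than in glia.

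Htr1b and Htr1d, which encode the release-limiting autoreceptors of serotonin axons, had their highest level in serotonergic neurons among the classes with a level in every library. Outside these classes, 14 nuclei of a cluster led by Car8 held more Htr1b, at 106.02 CPM pooled (95% Poisson interval 62.8 to 167.6) against 46.7 CPM (37.5 to 57.5) in pooled serotonergic neurons. Htr1b was at 28.7, 32.4 and 69.4 CPM in serotonergic neurons of the CIH libraries and at 63.2, 66.0 and 38.2 CPM in those of the normoxia libraries, a mean of 49.6 ± 18.5 CPM. The next class, fibroblasts, averaged 8.61 CPM, and no library of it reached the lowest serotonergic value. Htr1d was at 25.1, 11.8 and 17.4 CPM in the CIH libraries and at 34.5, 8.26 and 24.8 CPM in the normoxia libraries, a mean of 20.3 ± 9.70 CPM against 4.20 ± 2.13 CPM in GABA neurons, the next class. Neither gene separated CIH from normoxia in these neurons.

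Each neuron type was tested against the mean of the other 3 (edgeR's quasi-likelihood test over the 6 libraries, adjusted for 14825 genes). In serotonergic neurons 2 receptor genes were called higher, where 4.58% of all genes were, and 4 were called lower, where 6.27% were. Htr1b was higher by 2.645 on the log2 scale (SE 0.27, adjusted p = 3.78e-09) and Htr1d by 2.59 (SE 0.37, adjusted p = 3.07e-06), about 6.25-fold and 6.02-fold. The 4 lower genes were Htr2c (log2 -0.92, SE 0.09, adjusted p = 5e-09), Htr4 (log2 -1.83, SE 0.255, adjusted p = 2.14e-06), Htr7 (log2 -1.604, SE 0.235, adjusted p = 4.93e-06) and Htr2a (log2 -1.48, SE 0.39, adjusted p = 0.00859). The Htr2a call rested on 11 UMIs and was lost with doublets kept (log2 -1.10, adjusted p = 0.0644). Htr1f (log2 -0.28, adjusted p = 0.241) and Htr5a (log2 0.14, adjusted p = 0.926) did not pass, and Htr1a and Htr3a were below the filter on low counts.

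The share of serotonergic nuclei with at least 1 UMI was 52.5 ± 12.1% for Htr1b and 30.2 ± 15.3% for Htr1d. In oligodendrocytes, taken as the background class, the shares were 0.181% and 0.09%, at a median of 2572 UMIs per nucleus against 9948 in serotonergic nuclei. Nuclei of at least 1500 UMIs were also thinned to that depth, which left out 1 CIH and 1 normoxia serotonergic nucleus, 417 CIH and 896 normoxia oligodendrocytes, and 683 CIH and 500 normoxia neurons. Among the nuclei left, the shares were 12.4 and 7.98% in serotonergic neurons, against 0.115 and 0.035% in oligodendrocytes. The serotonergic share of either gene was the higher one with and without thinning.

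The 108 serotonergic nuclei were not of one kind. Of these, 59 fell in the neuron cluster led by Tph2, Slc6a4, Ddc and Slc18a2 (serotonin synthesis and transport genes), with 6, 5 and 7 from the CIH libraries and 12, 9 and 20 from normoxia. Slc6a2, a marker used here for noradrenergic neurons, and Calcr were also among its leading genes. The cluster held 90 nuclei in all, and the levels given next for Tph2-led nuclei are those of the 59. The other 49 (5, 7 and 16 from CIH, and 6, 4 and 11 from normoxia) lay in other clusters. They also carried marker transcripts of other cell types, with pooled levels of 49.6 CPM for Slc17a6, 42.9 for Gad2, 47.4 for Slc6a5 and 511 for Mbp. The same genes were at 3.61, 12.6, 0 and 83.0 CPM in the 59 nuclei of the Tph2-led cluster. The median was 13739 UMIs in the outside nuclei and 8846 in the Tph2-led nuclei.

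In the 59 nuclei of the Tph2-led cluster Htr1b and Htr1d were higher, and Htr2c lower, than in the other 49. Pooled over libraries, Htr1b was at 88.4 CPM there (95% Poisson interval 65.4 to 117, for counting error only) against 29.6 (21.1 to 40.3) in the 49 outside it. Htr1d was at 52.3 CPM (35.0 to 75.1) against 8.88 (4.59 to 15.5), although CIH replicate 3 had 0 Htr1d UMIs in its 7 nuclei. For Htr1f the intervals overlapped, with 95.6 CPM (71.6 to 125) against 77.7 (63.5 to 94.0). Htr2c, by contrast, was at 150 CPM (119 to 186) against 427 (393 to 463).

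The Gs-coupled receptors were at or near 0 UMIs in the Tph2-led nuclei. Htr4 had 0 UMIs in all 59, where a floor of 3 UMIs is 5.41 CPM, against 30.3 CPM in the 49 outside nuclei. Htr7 had 1 UMI (1.80 CPM, 0.05 to 10.05) against 30.3 CPM (21.8 to 41.15). When the Tph2-led nuclei alone stood for serotonergic neurons, a choice made after these values were seen, Htr1b was higher by 3.40 (SE 0.36) and Htr1d by 3.73 (SE 0.48) than in the other types, with adjusted p = 1.16e-09 and 1.3e-07. Htr2c (log2 -2.275, SE 0.22, adjusted p = 1.13e-10) and Htr7 (log2 -5.375, SE 0.70, adjusted p = 1.36e-07) were lower, while Htr2a missed the threshold (log2 -1.755, adjusted p = 0.0866). Of all 14520 genes in that fit, 637 were called higher and 1733 lower in serotonergic neurons. For Htr4, the floor of 3 UMIs over the group lay 13.3-fold below the 72.0 CPM mean of the other 3 types.

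**Figure D2:**
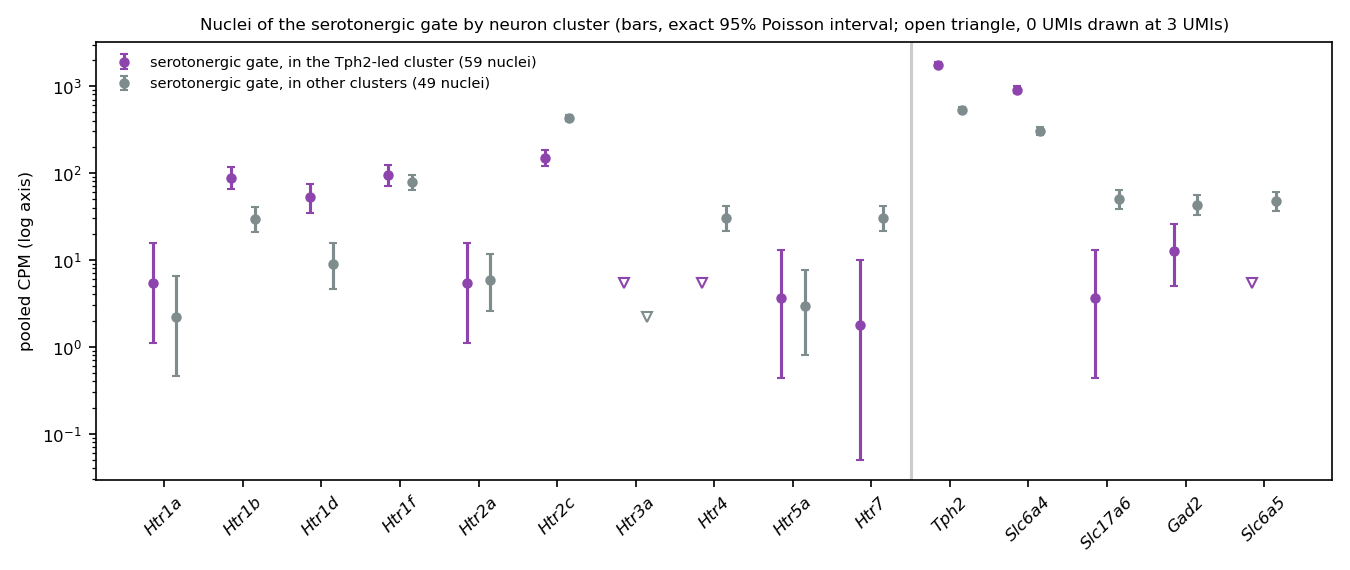
Pooled level (vertical axis, CPM, log scale) of the 10 receptor genes and 5 marker genes in nuclei of the serotonergic gate that lie in the Tph2-led cluster (purple, 59 nuclei) and in other clusters (grey, 49 nuclei), with exact 95% Poisson intervals and open triangles where 0 UMIs were counted. Htr1b and Htr1d are higher in purple, whereas Htr2c, Htr4, Htr7 and the excitatory and inhibitory markers are higher in grey.

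Htr1a, the somatic autoreceptor that slows raphe firing, was sparse. Serotonergic neurons gave 0 UMIs in each of the CIH libraries, against 3, 1 and 2 UMIs in the normoxia libraries. Pooled over the 3 CIH libraries, the 95% Poisson interval reached 4.66 CPM. These 6 UMIs came from 108 nuclei, and no test was made. Across all neurons Htr1a was at 1.24, 1.06 and 0.941 CPM in CIH, against 1.39, 1.16 and 1.36 CPM in normoxia. Its highest cluster was one led by Rorb and Sall3 (212 nuclei, 8.80 CPM from 14 UMIs), in which the libraries ranged from 0 to 21.65 CPM.

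Htr1f, a less studied inhibitory receptor of the same group, was spread over neuron types without a peak in serotonergic neurons. In the cluster where it was highest, led by Cck and Lmx1b, it was at 161, 213 and 153 CPM in CIH, against 271, 317 and 313 CPM in normoxia, and CIH was not tested there. It averaged 109 ± 17.97 CPM in glycinergic, 94.5 ± 16.8 in GABA, 84.2 ± 20.5 in serotonergic, 81.0 ± 13.5 in excitatory and 80.0 ± 8.92 CPM in untyped neurons. The ranges of each pair of neighbours in this order overlapped. All untyped values lay above all mural values, and oligodendrocytes averaged 10.4 ± 5.35 CPM. Of the nuclei, 31.6 ± 3.99% of neurons had an Htr1f UMI against 3.05% of oligodendrocytes, and 10.9% against 1.53% after thinning.

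Htr5a, also coupled to inhibitory G proteins, averaged 3.88 ± 1.80 CPM in GABA, 2.35 ± 0.443 in glycinergic and 1.93 ± 0.625 CPM in excitatory neurons. Its 6 serotonergic UMIs gave a mean of 3.09 ± 3.05 CPM, and neighbours in the order of levels overlapped.

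Htr2c, the Gq-coupled receptor for which RNA editing is known, was found in all neuron types. Glycinergic neurons had 512, 549 and 793 CPM in CIH, against 693, 749 and 857 CPM in normoxia (692 ± 137). GABA neurons averaged 647 ± 127, untyped neurons 530.3 ± 64.6, excitatory neurons 458 ± 62.7 and serotonergic neurons 325 ± 98.3 CPM. Serotonergic neurons were lower than excitatory neurons in 6 of 6 libraries, although the ranges of these neighbours overlapped. Every serotonergic value exceeded every value of microglia (59.8 ± 20.3 CPM), the highest of the glial and vascular classes tabulated by library, and oligodendrocytes were lowest at 27.3 ± 6.52 CPM.

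An Htr2c UMI was found in 56.5 ± 5.98% of neurons and 6.88% of oligodendrocytes, and in 37.3 and 3.83% after thinning. Free RNA in the droplets can give such UMIs in glia, and its part in the glial levels was not tested. Outside neurons, 13 nuclei carried at least 3 choroid plexus epithelium markers, a set defined after the data were seen. They came from 4 libraries, 3 and 5 from CIH replicates 1 and 2 and 1 and 4 from Normoxia replicates 2 and 3. These 13 nuclei held 717 Htr2c UMIs at a median depth of 2939 UMIs per nucleus, a pooled level of 14780 CPM (95% Poisson interval 13718 to 15903). An Htr2c UMI was seen in 12 of 13, with a median of 17 and a maximum of 226 UMIs, and 1 UMI of Htr7 was the only other member detected there.

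Htr2c differed widely among the 27 neuron clusters of at least 50 nuclei. The highest cluster was led by Cck, Tcerg1l and Lmx1b (142 nuclei), where it was at 1754, 1492 and 1555 CPM in CIH, against 1521, 1361 and 1467 CPM in normoxia. The large cluster led by Mecom and Slc6a5, a glycine transporter gene, followed at 956 CPM pooled. The lowest was a cluster led by Pde11a and Arhgap6 (109 nuclei), at 29.4 CPM pooled from 14 UMIs, close to the oligodendrocyte level, with 0 to 100.05 CPM by library. In that same cluster every member other than Htr2c and Htr1f (25.2 CPM) had 0 UMIs.

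Htr2a, the other Gq-coupled receptor, had its highest mean in endothelial nuclei among the classes with a level in every library. It was above GABA neurons, the next class, in 5 of 6 libraries, and the ranges overlapped. The means were 40.4 against 19.5 CPM in CIH and 18.6 against 17.4 CPM in normoxia. Endothelial nuclei had 23.99, 59.5 and 37.7 CPM in CIH (4, 8 and 27 UMIs) and 23.85, 12.9 and 19.1 CPM in normoxia (2, 1 and 3 UMIs). The groups did not overlap, with 23.99 CPM as the lowest CIH value against 23.85 CPM as the highest in normoxia, where 11.8% of genes with at least 20 UMIs did not overlap in this class. Htr2a fell below the filter there, so no test was made. An Htr2a UMI was seen in 4.01 ± 1.54% of endothelial nuclei and 0.225% of oligodendrocytes. Oligodendrocyte precursors had 5.51, 0 and 8.98 CPM in CIH (1, 0 and 8 UMIs) and 16.7, 15.1 and 13.7 CPM in normoxia (4, 3 and 4 UMIs), also without overlap, where 9.21% of genes showed none, and also untested.

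Among neurons Htr2a averaged 18.4 ± 3.63 CPM in GABA, 14.1 ± 1.74 in excitatory, 13.3 ± 2.34 in glycinergic and 6.24 ± 5.20 in serotonergic neurons. The 102 cholinergic nuclei, too few per library for a test, held 34.3 CPM pooled (26.8 to 43.2). By cluster, Htr2a was highest in one led by Stac and Foxp2 (147 nuclei), at 127, 71.35 and 67.4 CPM in CIH, against 49.45, 41.5 and 61.2 CPM in normoxia. The cluster was picked for its level, and CIH was not tested in it. A GABA cluster led by Nfib and Gad2 followed at 27.99 CPM pooled.

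Htr3a, the channel subunit, was close to the limit of detection. All neurons held 50 UMIs, at 0.474, 0.249 and 0.388 CPM in CIH, against 0.746, 0.134 and 0.422 CPM in normoxia. Cholinergic neurons held 7 of these UMIs (3.38 CPM pooled, 1.36 to 6.96) and GABA neurons averaged 0.685 ± 0.636 CPM. Serotonergic neurons had 0 UMIs, with a pooled 95% Poisson interval of up to 1.94 CPM.

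Htr4 and Htr7, the Gs-coupled receptors, followed a like order of types. Htr4 lies at chr18:62324204-62496577 on the plus strand. It averaged 81.5 ± 11.8 CPM in glycinergic, 75.0 ± 9.25 in GABA, 69.0 ± 7.41 in untyped, 59.4 ± 9.21 in excitatory and 21.8 ± 12.3 in serotonergic neurons. Htr7 averaged 69.7 ± 10.0 CPM in glycinergic, 67.1 ± 10.1 in GABA, 61.7 ± 7.19 in untyped, 53.5 ± 9.24 in excitatory and 21.0 ± 13.4 in serotonergic neurons. For both genes excitatory and serotonergic neurons did not overlap, whereas each earlier pair of neighbours did. Oligodendrocytes were at 1.85 ± 0.716 CPM for Htr4 and 2.16 ± 0.881 for Htr7. Neurons with a UMI made up 29.2% for Htr4 and 27.8% for Htr7, against 0.493 and 0.606% of oligodendrocytes.

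By cluster these receptors parted. Htr4 was highest in a cluster led by Sox5 and Lmo3 (175 nuclei), at 403, 269.5 and 273 CPM in CIH, against 219, 205 and 242 CPM in normoxia, all 6 above the 158 CPM pooled level of the next cluster. Htr7 was highest in the cluster led by Cck and Lmx1b that also led for Htr2c and Htr1f, at 193, 107 and 141 CPM in CIH, against 108, 125 and 120.2 CPM in normoxia. It was followed by a cluster led by Nts and Ebf1 (514 nuclei, 111 CPM pooled), at 77.3, 160 and 134 CPM in CIH, against 102, 104 and 107 CPM in normoxia. The ranges of these clusters overlapped, and in CIH replicate 2 the Nts and Ebf1 cluster was the higher.

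**Figure D3:**
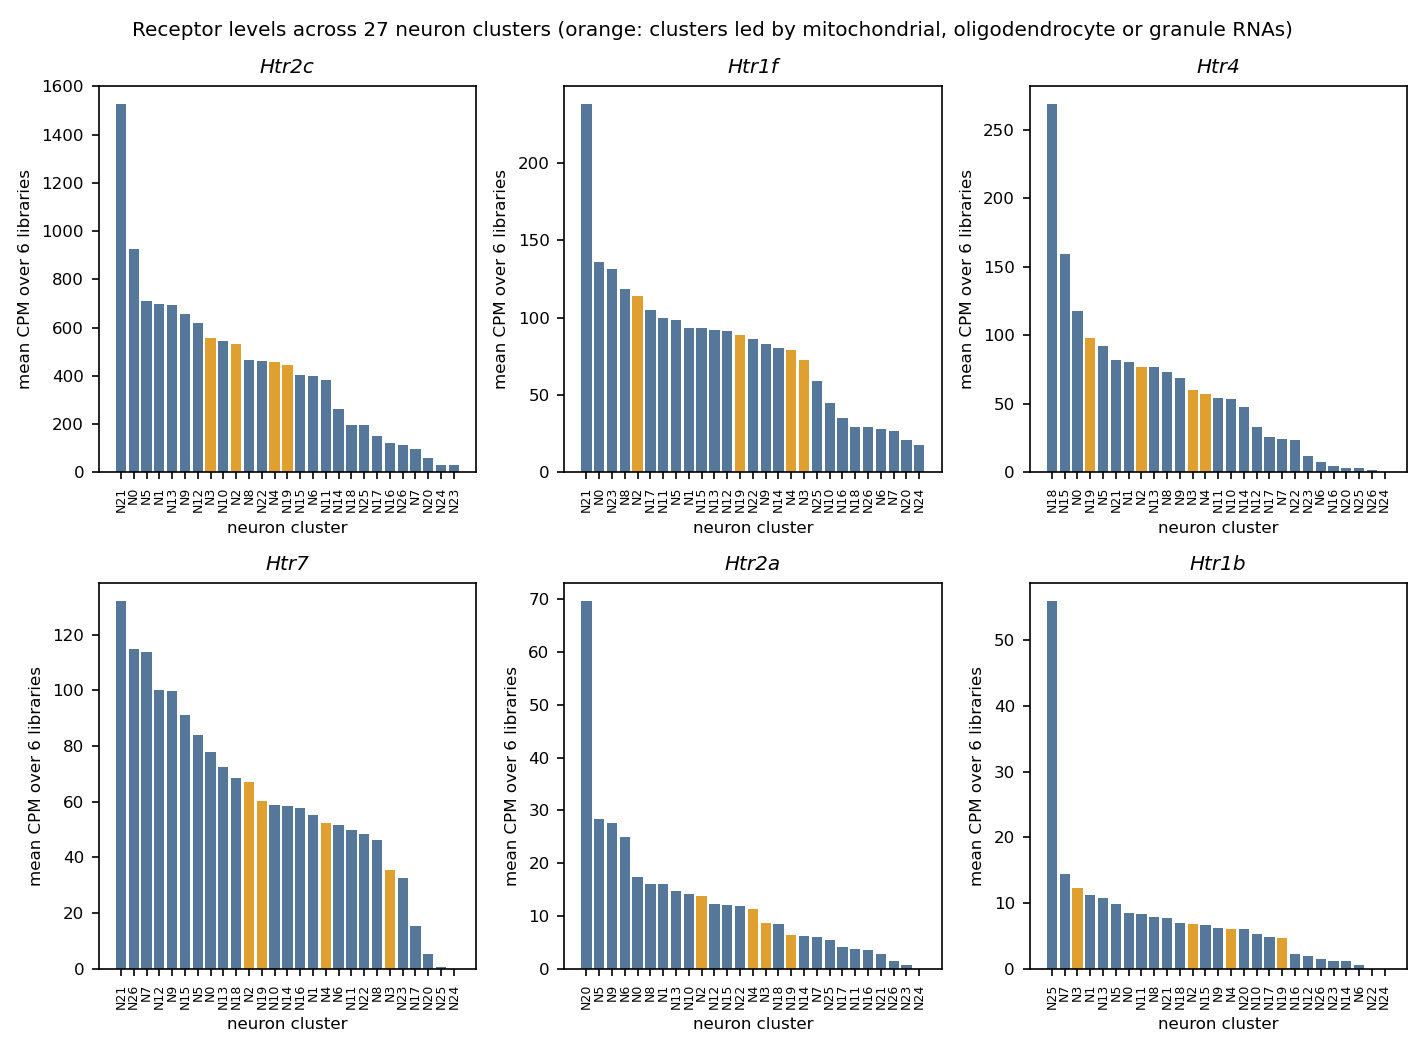
Mean level over the 6 libraries (vertical axis, CPM, from 0) of 6 receptor genes in the 27 neuron clusters of at least 50 nuclei, ordered from high to low for each gene, with clusters led by mitochondrial, oligodendrocyte or granule neuron transcripts in orange. Cluster N21 (led by Cck and Lmx1b) is first for Htr2c, Htr1f and Htr7, N18 (Sox5 and Lmo3) for Htr4, N20 (Stac and Foxp2) for Htr2a and N25 (Tph2) for Htr1b.

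The genes with the most similar profile across these 27 clusters were sought for the 4 members with the most UMIs, as Pearson's r of log2(mean CPM + 1). Only genes with a mean of at least 20 CPM in at least 1 cluster entered. Htr genes and predicted genes (Gm numbers and Rik names) were left out. For Htr2c they were Pde8b (r = 0.919), Ptpn5 (0.901) and Cplane1 (0.859). For Htr7 they were Plvap (0.912), Trpc5 (0.900) and Rtl4 (0.845), and for Htr4 Nova1 (0.858), Gabpb1 (0.827) and Lrrtm4 (0.823). For Htr1f the likeness was weaker, with Aldh1l2 (0.773), Coq3 (0.773) and Smg5 (0.770). The points share libraries, and clusters of different depth enter alike, the doubtful ones included.

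Because the low serotonergic levels enter the mean of the other types, the remaining types were also compared among themselves, a choice made after the data were seen (14884 genes). Without serotonergic neurons, excitatory neurons had 0 receptor genes higher, where 7.31% of genes were, and 4 lower, where 5.05% were. These were Htr2c (log2 -0.50, SE 0.05, adjusted p = 1.14e-07), Htr4 (log2 -0.36, SE 0.08, adjusted p = 0.00194), Htr7 (log2 -0.31, SE 0.07, adjusted p = 0.00177) and Htr1f (log2 -0.30, SE 0.06, adjusted p = 0.00137). Glycinergic neurons had 3 higher (4.41% of genes) and 0 lower (5.13%). Htr2c was higher there by 0.33 (SE 0.05, adjusted p = 6.93e-05), Htr1f by 0.30 (SE 0.06, adjusted p = 0.00121) and Htr4 by 0.26 (SE 0.07, adjusted p = 0.0255), and Htr7 missed the threshold (log2 0.19, adjusted p = 0.07). GABA neurons had 3 higher (6.96%) and 0 lower (7.42%), Htr5a by 0.84 (SE 0.22, adjusted p = 0.0106), Htr2a by 0.40 (SE 0.12, adjusted p = 0.021) and Htr2c by 0.17 (SE 0.05, adjusted p = 0.0274).

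With serotonergic neurons among the types, as first designed, glycinergic neurons had 4 genes higher (Htr1f, Htr2c, Htr4 and Htr7, by 0.36 to 0.84, where 6.37% of genes were) and Htr1b and Htr1d lower (5.09% of genes). GABA neurons had Htr2a, Htr2c, Htr4 and Htr7 higher (4.04%) and Htr1b lower (2.63%). That Htr1b call (log2 -0.63, adjusted p = 0.0427) was lost without CIH replicate 3 (adjusted p = 0.129) and without Normoxia replicate 1 (0.216), 2 (0.169) or 3 (0.0837). Excitatory neurons had 0 genes higher (7.82%) and Htr1b and Htr1d lower (4.38%), and for Htr2a, Htr4 and Htr7 the difference of excitatory neurons turned from positive to negative once serotonergic neurons were left out.

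CIH was compared with normoxia within each class that had at least 20 nuclei in every library. The main fit had no term for the difference of replicate 3 from the other replicates, which limits what it could call. In neurons none of the 9 receptor genes that passed the filter was called, and 0.0% of 18102 genes were called by edgeR. At an unadjusted p under 0.05 there were 1103 genes, 0 of them receptor genes, and DESeq2 called 10 genes, again 0 of them receptor genes. All 9 were lower in CIH, with log2 differences of -0.44 to -0.05 and a median of -0.20, where the median of all genes was 0.002. In neurons 0 of the 10 genes were lower in every CIH library than in every normoxia library, which held for 5.37% of genes with at least 20 UMIs.

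Htr2c was at 488, 470.4 and 590.2 CPM in neurons of the CIH libraries and at 549.5, 589 and 702 CPM in those of the normoxia libraries, with a log2 difference of -0.26 (SE 0.14, adjusted p = 0.798). In each group replicate 3 was the highest, and CIH replicate 3 lay above Normoxia replicates 1 and 2. Htr1f was at 85.5, 71.7 and 90.9 CPM in CIH, against 88.8, 99.2 and 106 CPM in normoxia (log2 -0.25, SE 0.12, adjusted p = 0.798). Htr4 was at 65.2, 68.6 and 69.5 CPM in CIH, against 65.7, 72.3 and 77.3 CPM in normoxia (log2 -0.09, SE 0.09, adjusted p = 0.86), and Htr7 at 53.9, 52.6 and 65.4 CPM in CIH, against 61.8, 64.9 and 69.4 CPM in normoxia (log2 -0.20, SE 0.115, adjusted p = 0.798). The groups overlapped for each of these genes.

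Among the sparser genes Htr2a was at 11.8, 13.7 and 16.8 CPM in CIH neurons and 14.3, 15.8 and 15.5 CPM in normoxia neurons, and Htr1b at 5.80, 7.59 and 7.81 CPM in CIH, against 8.21, 6.80 and 8.79 CPM in normoxia. Htr1d was at 3.20, 4.04 and 3.27 CPM in CIH, against 4.23, 3.62 and 3.02 CPM in normoxia, and Htr5a at 2.37, 2.11 and 1.72 CPM in CIH, against 2.09, 2.64 and 3.50 CPM in normoxia. None of these 4 genes passed the test (adjusted p of 0.798 to 0.974), and the differences of Htr1d and Htr2a changed sign when CIH replicate 1 was left out (log2 0.01 and 0.001).

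**Figure D4:**
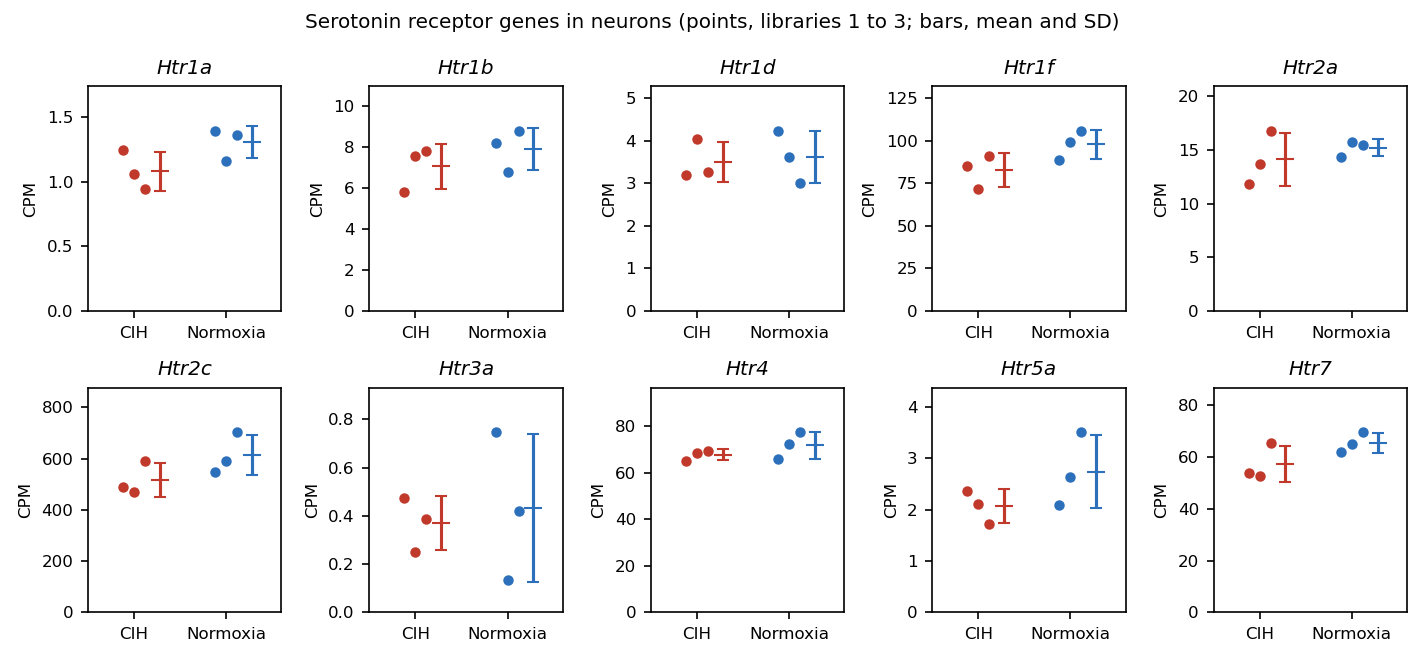
Level of each receptor gene in all neurons (vertical axis, CPM, from 0) in libraries 1 to 3 of CIH (red) and normoxia (blue), with the mean and SD of each group. The groups overlap for all 10 genes.

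Summed over all kept nuclei, by contrast, 6 of the 10 genes (Htr1b, Htr1f, Htr2a, Htr2c, Htr4 and Htr7) were lower in every CIH library than in every normoxia library, where 8.34% of genes were. Htr2c was at 341, 318 and 331 CPM in CIH, against 402, 430.3 and 551 CPM in normoxia (log2 -0.49, SE 0.13, adjusted p = 0.377). None of the 9 tested was called, where 0.00513% of genes were. The share of neurons, doubtful clusters included, also separated the groups (27.9 to 31.0% in CIH, 41.9 to 47.3% in normoxia). Within neurons the same genes overlapped. A lower share of neurons and less receptor RNA per neuron cannot be told apart in such sums. With depth (median UMIs in a nucleus) as a covariate, an alternative fit, Htr7 was called in all nuclei. The share of all genes called in that fit is not given here, so the call cannot be weighed against it.

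In excitatory neurons Htr7 was at 47.1, 40.6 and 48.995 CPM in CIH, against 63.6, 59.1 and 61.6 CPM in normoxia. Every CIH library lay below every normoxia library, which held for 4.91% of genes in this class. The log2 difference was -0.46 (SE 0.11, unadjusted p = 0.00159) and did not pass adjustment over 14795 genes (edgeR adjusted p = 0.522, with 0.0% of genes called and 1063 at an unadjusted p under 0.05). Over the alternatives its adjusted p ran from 0.0376, without CIH replicate 3, to 0.988. In inhibitory neurons the log2 difference of Htr7 was -0.04 (SE 0.15, adjusted p = 0.983; 0.0% of genes called). The difference between both effects was -0.41 (SE 0.14, limma, unadjusted p = 0.0278, adjusted p = 0.765), in a comparison with 0.0% of 14736 genes called and 922 at an unadjusted p under 0.05.

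**Figure D5:**
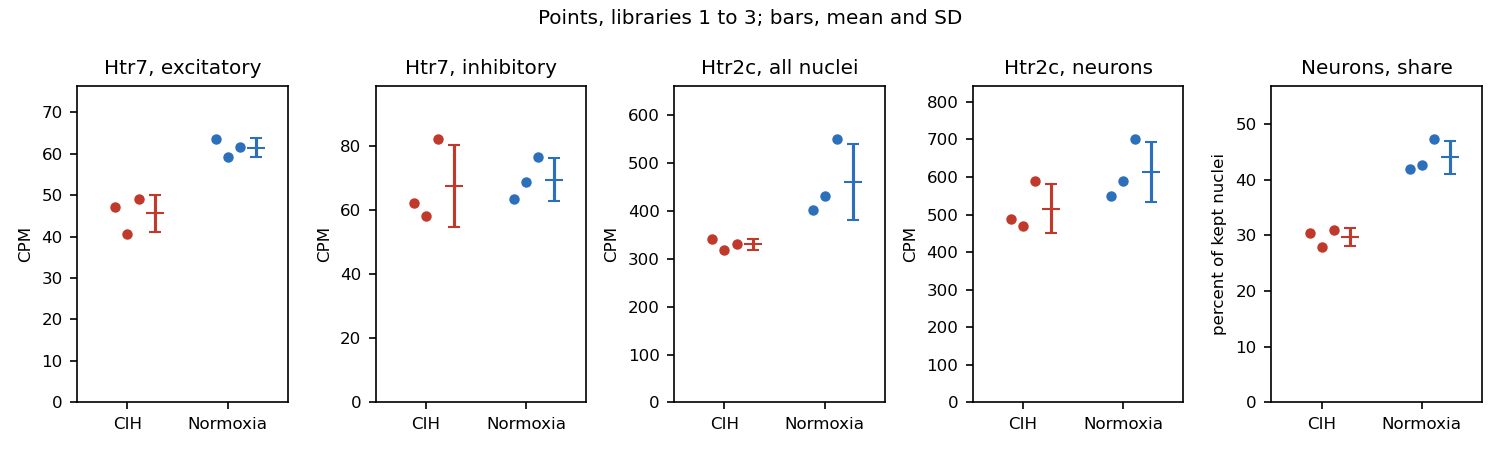
Htr7 in excitatory and inhibitory neurons, Htr2c in all nuclei and in neurons (vertical axes, CPM, from 0) and neurons as a percent of kept nuclei, by library in CIH (red) and normoxia (blue), with mean and SD. CIH and normoxia separate for Htr7 in excitatory neurons, for Htr2c in all nuclei and for the share of neurons, and overlap for Htr7 in inhibitory neurons and Htr2c in neurons.

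Htr2a in glycinergic neurons was at 12.2, 11.7 and 10.1 CPM in CIH, against 16.1, 15.2 and 14.7 CPM in normoxia, without overlap where 10.9% of genes showed none. Its log2 difference of -0.42 (SE 0.15, unadjusted p = 0.0151) did not pass adjustment (adjusted p = 0.826, 0.0% of 15330 genes called). The other member without overlap in this class was Htr5a, at 2.095, 1.91 and 2.13 CPM in CIH, against 2.35, 2.47 and 3.16 CPM in normoxia (log2 -0.38, SE 0.31, adjusted p = 0.897). For Htr2a in GABA neurons the groups overlapped, at 13.8, 20.8 and 23.98 CPM in CIH, against 15.6, 17.95 and 18.6 CPM in normoxia. The log2 difference of Htr2a there was 0.155 (edgeR adjusted p = 0.988, 0.0% of genes called). Granule neurons had 35.5, 30.5 and 29.9 CPM of Htr2c in CIH against 51.2, 48.1 and 60.8 CPM in normoxia (log2 -0.73, SE 0.18, adjusted p = 0.838; 0.0104% called), where oligodendrocytes ranged from 20.1 to 38.4 CPM. Htr2c did not overlap between the groups in granule neurons, where 10.4% of genes with at least 20 UMIs showed no overlap. Nor did Htr2a, which was higher in CIH at 1.69, 1.83 and 1.496 CPM (12 UMIs), against 1.14, 0 and 1.17 CPM in normoxia (2 UMIs). Its 14 UMIs in this class were too few to enter that share. Htr2a was below the filter there and was not tested.

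In the remaining classes no receptor gene was called either. Htr7 in untyped neurons was at 48.2, 62.4 and 61.4 CPM in CIH, against 62.7, 66.9 and 68.7 CPM in normoxia, without overlap where 10.9% of genes showed none (log2 -0.22, SE 0.12, adjusted p = 0.841). Htr4 in oligodendrocytes was at 0.635, 1.73 and 1.63 CPM in CIH, against 2.69, 2.06 and 2.37 CPM in normoxia, without overlap where 12.2% of genes showed none (log2 -0.75, SE 0.40, adjusted p = 0.805). Htr1a also did not overlap in oligodendrocytes, with 0 UMIs in CIH against 2, 1 and 2 UMIs in normoxia, and was below the filter. Its 5 UMIs were too few to enter the 12.2%, which covers genes with at least 20 UMIs. Untyped neurons had 8 genes tested (0.0% of genes called), oligodendrocytes 4 (0.0155%), astrocytes and microglia 1 each (0.0% and 0.0%), and precursors, endothelial cells and fibroblasts 0 (0.0% in each). DESeq2 called 0 receptor genes in any class, and called 10 genes of all tested in excitatory neurons, 5 in inhibitory neurons and 191 in all nuclei. Serotonergic neurons, with as few as 11 nuclei in a library, were not tested for CIH.

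Of 38 other genes of the serotonin pathway, 36 were tested in neurons and 0 were called, with 24 higher and 12 lower in CIH and a median log2 difference of 0.07. Of the rest of the family, Htr2b (log2 -0.13), Htr5b (log2 -0.725) and Htr6 (log2 -0.004) were tested with adjusted p of 0.831 to 0.999, and Htr3b was below the filter. Among 6 tested genes of synthesis, transport and breakdown, 4 were higher and 2 lower. Tph2, the rate-limiting enzyme of neuronal serotonin synthesis, was at 24.2, 15.98 and 18.8 CPM in CIH, against 14.5, 7.83 and 15.1 CPM in normoxia (log2 0.64, SE 0.26, unadjusted p = 0.0381, adjusted p = 0.798). Slc6a4, the serotonin transporter gene, had a log2 difference of 0.49 (adjusted p = 0.802), and neither gene passed the threshold.

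Among 27 transduction genes 20 were higher and 7 lower. The smallest p-values were those of Itpr1, the inositol trisphosphate receptor of the Gq pathway (log2 0.44, SE 0.08, unadjusted p = 0.000482, adjusted p = 0.717), and Plcb4, a phospholipase C gene of that pathway (log2 0.175, SE 0.06, unadjusted p = 0.0165, adjusted p = 0.798). Neither passed the threshold.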

How the data were processed

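Single-nucleus RNA libraries (10x 3' v3.1) were made from frozen mouse pons-medulla, per the labels' protocols. The authors deposited filtered matrices of raw counts (UMIs per gene and nucleus). Cell Ranger is given as version 6.1.2 per the file headers and 3.1.0 per the submitters' processing notes. Those notes list Seurat 4.0 and mm10 too. Whether intronic reads were counted is not given in the sources used here.

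The members and gene lists were chosen with earlier results of these data known. A nucleus was kept with 500 or more genes and no more than 5% of its UMIs mitochondrial. Scrublet's automatic call marked 537, 1 and 0 nuclei in CIH and 0, 0 and 1211 in normoxia, so the top scorers (0.8% per 1000 barcodes) were removed instead. That took 160, 170 and 1024 nuclei in CIH and 190, 323 and 749 in normoxia. Clustering (scanpy 1.11.5, leidenalg 0.10.2) used 3000 variable genes without any Htr gene, 30 components, 15 neighbours and resolution 1. Excitatory and inhibitory neurons were typed by at least 2 transmitter UMIs. Serotonergic (Tph2, Slc6a4, Fev), noradrenergic (Dbh, Slc6a2, Th) and cholinergic neurons (Chat, Slc5a7, Slc18a3) needed at least 2 of their marker genes detected. Raw counts were summed per library and class and tested where each library had at least 20 nuclei, and levels were given from 5 nuclei.

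edgeR 4.0.16 (quasi-likelihood, TMM, filterByExpr, R 4.3.3) was the test, with Benjamini-Hochberg adjustment over all genes and a threshold of 0.05, and DESeq2 1.42.0 was an alternative. limma 3.58.1 compared the CIH effects of excitatory and inhibitory neurons on log2 CPM with a prior count of 1. Type comparisons kept the library as a block. Intervals are exact Poisson at 95%, and floors are 3 counts. Replicate numbers come from the sample titles. Deviations of same-numbered libraries correlated at 0.1435, 0.1043 and 0.2661, but so did CIH replicate 1 with Normoxia replicate 2 (0.1367) and CIH replicate 2 with Normoxia replicate 1 (0.1319), so replicates 1 and 2 were not told apart and both differed from replicate 3. The CIH comparisons were fitted without a replicate block, and the blocked fit was an alternative. No fit set replicate 3 against replicates 1 and 2, so that difference stayed in the spread of the main fit. Alternatives covered scaling, filters, doublets, gates, depth, shared barcodes, clusters led by mitochondrial or glial RNA, and each library left out. Those on shared barcodes, clusters, and the serotonergic set were chosen after seeing the data. All 10 members, the 4 other family genes, Tph2, Slc6a4 and the 2 pathway genes of smallest p were named by rule. Statistical steps were tested on simulated data. Python 3.11.15 with matplotlib 3.10.9 drew the figures. One result on a small cluster is not reported here.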

Additional observations from a re-analysis of the deposited data

Results flagged for a closer look

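The 1563 barcodes shared by CIH replicate 1 and Normoxia replicate 2 were a signal outside the comparisons: the other 14 pairs shared 3 to 38. In 1549 of them the UMIs of CIH replicate 1 were 5 to 11 times those of Normoxia replicate 2.

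A cluster of 14 nuclei led by Car8, outside the classes compared, had Htr1b at 106.02 CPM (95% Poisson interval 62.8 to 167.6, 18 UMIs).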

How the results depend on the processing

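Of the CIH comparisons, the count of receptor genes called stayed at 0 except in all nuclei with depth per nucleus as a covariate (1, Htr7) and in excitatory neurons with single libraries left out (range 0 to 1, the 1 being Htr7 without CIH replicate 3). With the replicate block, which treats same-numbered libraries as pairs, 0 were called, with Htr2c in neurons at -0.26 (adjusted p = 0.517), Htr7 in excitatory neurons at -0.46 (adjusted p = 0.236) and the excitatory minus inhibitory difference at -0.41 (adjusted p = 0.744), and no other call changed. Receptor genes called higher in excitatory neurons, 0 as designed, numbered 2 with no filter, 1 with a gate of 1 UMI, 2 without doubtful clusters, 3 with Tph2-led nuclei alone and 0 to 2 with single libraries left out. With Tph2-led nuclei alone, 1811 of all 14520 genes were called higher in excitatory neurons. Leaving serotonergic neurons out gave 4 lower in excitatory, 0 lower in glycinergic and 0 lower in GABA neurons. In GABA neurons 2 were lower with Tph2-led nuclei alone, where 354 of all 14520 genes were, and 0 to 1 with single libraries left out. Where a count changed in the other alternatives, apart from leaving serotonergic neurons out, the share of all genes called is not given here. Mean Htr4 in neurons was 74.93 CPM without doubtful clusters. The cause of these shifts was not tested, except that leaving types out changes the mean compared with.

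Signs turned for small differences. In the CIH comparison of neurons Htr1d was at 0.01 without CIH replicate 1 and 0.06 without Normoxia replicate 1 (range -0.16 to 0.06 over single libraries left out), and Htr2a at 0.001 without CIH replicate 1 (range -0.29 to 0.001) and 0.0007 without doubtful clusters. Htr7 in inhibitory neurons was at 0.03, 0.07 and 0.05 without CIH replicate 1, CIH replicate 2 and Normoxia replicate 3 (range -0.23 to 0.07). Without serotonergic neurons the differences were -0.15 (Htr2a), -0.36 (Htr4) and -0.31 (Htr7) in excitatory, -0.25 (Htr2a) in glycinergic, and 0.27 (Htr1b), 0.48 (Htr1d) and -0.002 (Htr1f) in GABA neurons. Excitatory Htr2c was at 0.12 without doubtful clusters and 0.32 with Tph2-led nuclei alone, and serotonergic Htr5a at -0.22 without Normoxia replicate 2 (range -0.22 to 0.40). Depth limits Htr1a, Htr3a and Htr5a, and 11 nuclei in the smallest library limit serotonergic neurons.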

Other observations

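Neuron clusters under 50 nuclei held some of the highest receptor levels. In 13 nuclei from 4 libraries, led by Gxylt2, Npas1 and Gata3 and mostly glycinergic by the gate, Htr2c was at 2991 CPM (95% Poisson interval 2757 to 3240, with a UMI in 13 of 13 nuclei) and Htr7 at 149 CPM (101 to 213). In 29 nuclei led by Nos1, Chat and Slc5a7, Htr7 was at 94.7 CPM (66.0 to 132) and Htr2c at 75.8 CPM.

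The 102 cholinergic nuclei held 337 CPM of Htr2c, 78.7 of Htr1f, 49.7 of Htr7 and 45.9 of Htr4, pooled over libraries. The 43 noradrenergic nuclei held 191 CPM of Htr2c, and their Htr1d level of 11.4 CPM (5.45 to 20.9) came from 10 UMIs.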
